A study of Homo sapiens with 4 samples.

Results

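Interferon-stimulated and interferon-signalling genes were measured in the cell lines LM2-4175, named LM2 in the authors' table, and MDA-MB-231. MDA-MB-231 is a human triple-negative breast cancer cell line, and LM2-4175 was isolated from it and metastasizes to the lung. Both cell lines were cultured in DMEM with serum, and the sample titles name no treatment. Total RNA was extracted, and 4 libraries made from it were sequenced, 2 of each cell line. The members were 59 gene symbols chosen by name, all of which matched 1 row each among the 57815 genes of the deposited table. Each row holds 1 FPKM per cell line (fragments counted per kilobase of transcript and scaled to sequencing depth), made by the authors from both libraries, with a lower and an upper bound. As no value per library was used, there is no SD and no replicate check, and the number of reads behind a gene's value is unknown. The sources used here do not say if the bounds include differences between libraries.

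Interferons are secreted proteins, and cells release type I interferons when they sense foreign nucleic acid. Type I interferons such as IFN-beta bind the receptor chains IFNAR1 and IFNAR2, and interferon-gamma binds IFNGR1 and IFNGR2. Kinases of the JAK family on these receptors phosphorylate STAT proteins. Complexes with STAT2 and IRF9 then bind the interferon-stimulated response element (ISRE) in promoters, and the gamma-activated site (GAS) is the element of the interferon-gamma response. The genes induced in this way make proteins that sense viral RNA, block viral entry or release, or modify other proteins, and many tumour cell lines express a part of them without added interferon.

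The ISRE core was searched as GAAA, any 2 bases and GAAA again, on both strands, from 250 bases before to 50 bases after each RefSeq transcript start. RefSeq promoters (GRCh38.p14) were matched for 46 of the 59 members. The core was found in 27 of these 46 (58.7%, exact 95% binomial interval 43.2 to 73.0%, counting error only), against 1195 of all 27305 genes with a promoter in the table (4.38%). The GAS core, searched as TTCNNNGAA, was found in 14 of the 46 (30.4%) against 9.38% of all genes. Some GAS matches overlap an ISRE match, as in IFI27. Because members were chosen as interferon genes, these shares describe the list and are not a test of it.
Promoter stretches of 8 members are shown because related genes with the same motif differed in how much their RNA changed. Capitals mark the ISRE core on either strand, and overlapping cores run together. Each stretch lies within the searched window and was placed on GRCh37 (hg19, the build of the deposited table) by its exact match. IFI27 (chr14:94576954-94577016, plus strand) and IFI6 (chr1:27998767-27998879, minus strand) encode small mitochondrial proteins of the same family. IFIT1 (chr10:91152244-91152306), IFIT3 (chr10:91087578-91087661) and IFIT5 (chr10:91174260-91174324) lie near each other on the plus strand. IFITM1 (chr11:313980-314029, plus strand) and IFITM3 (chr11:320866-320932, minus strand) are neighbours too, and ISG15 is at chr1:948744-948799 on the plus strand. In the searched window IFITM1 and IFITM3 hold 2 ISRE cores each, and the stretch of IFITM1 shows 1 of its 2.
IFI27: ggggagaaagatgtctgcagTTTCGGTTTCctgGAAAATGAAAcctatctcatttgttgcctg
IFI6: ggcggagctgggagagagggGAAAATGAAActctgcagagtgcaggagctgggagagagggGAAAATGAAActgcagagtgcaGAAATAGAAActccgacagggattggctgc
IFIT1: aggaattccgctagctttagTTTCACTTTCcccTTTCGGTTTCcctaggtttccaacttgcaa
IFIT3: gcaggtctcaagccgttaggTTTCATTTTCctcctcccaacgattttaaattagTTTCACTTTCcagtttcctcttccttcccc
IFIT5: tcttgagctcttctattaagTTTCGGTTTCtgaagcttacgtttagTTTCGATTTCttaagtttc
IFITM1: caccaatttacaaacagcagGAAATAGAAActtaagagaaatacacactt
IFITM3: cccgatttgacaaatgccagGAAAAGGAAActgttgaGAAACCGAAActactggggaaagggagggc
ISG15: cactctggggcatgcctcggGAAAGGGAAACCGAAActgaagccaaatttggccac

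Of the interferon genes, 17 were down-regulated in LM2 by the rule given here, among them IFI27, IFIT1, OASL and ISG15, and 1 was up-regulated. Changes are given as log2 of (FPKM + 1) in LM2 over (FPKM + 1) in MDA-MB-231. This scale makes changes of low genes look smaller than they are. A gene was tested where its mean FPKM was at least 0.5 and its status OK, and called where it changed by 1.5-fold or more and the bounds of the cell lines did not overlap. Of the 59 members, 56 were tested, and 51 of these had a lower and 5 a higher FPKM in LM2, where 7585 of all 13911 genes tested had a lower one. Called lower were 17 of the 56 (30.4%), whereas 4.61% of all 13911 genes tested were called lower. Called higher was 1 member, ISG20 (1.79%), against 4.67% of all genes tested. Because the members were chosen with earlier results of these data known, these shares describe the list and are not a test of it. The median change of the members was -0.47, and that of all genes tested -0.04. Another 8 members were lower by at least 1.5-fold with overlapping bounds. With the fold alone, 25 members were lower, against 11.8% of all genes, and 1 was higher, against 10.3%. These counts compare pooled libraries, and in cultured cells a smaller number of expressing cells and less RNA per cell cannot be told apart.

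**Figure D1:**
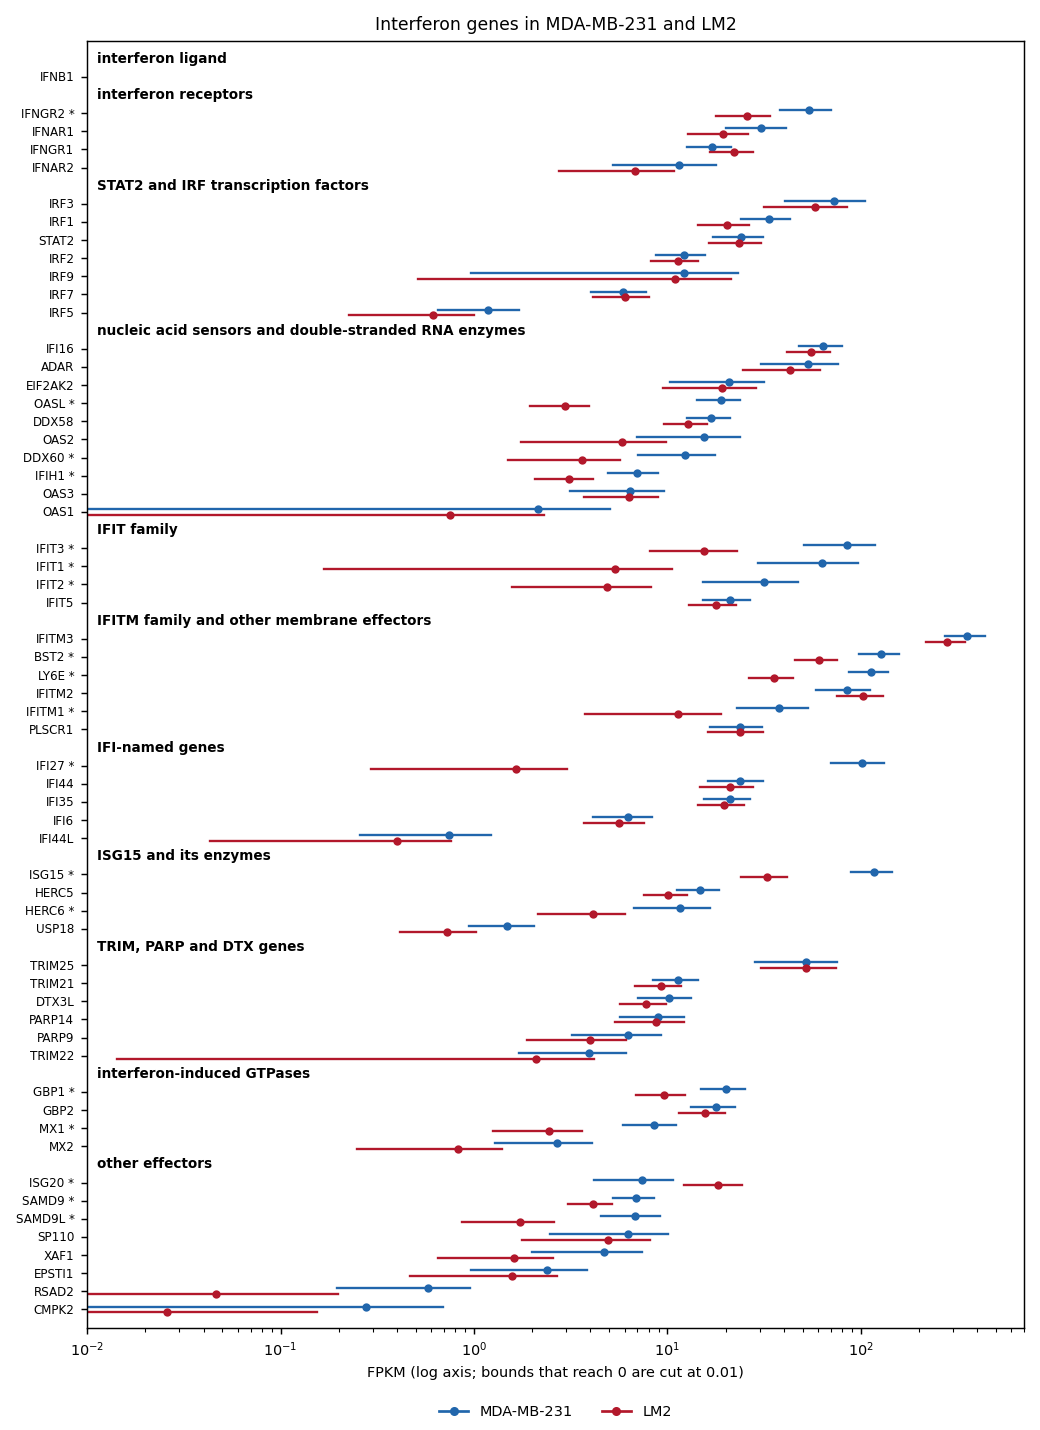
FPKM (log axis) of the 59 members in MDA-MB-231 (blue) and LM2 (red), grouped by role, with points for the authors' value of both libraries together and lines for the authors' bounds. Stars mark the 18 members called, and no point is drawn for IFNB1, which is listed at 0; the lines of IFI27, OASL and ISG15 are far apart, while those of STAT2, IRF7 and TRIM25 lie over each other.

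**Figure D2:**
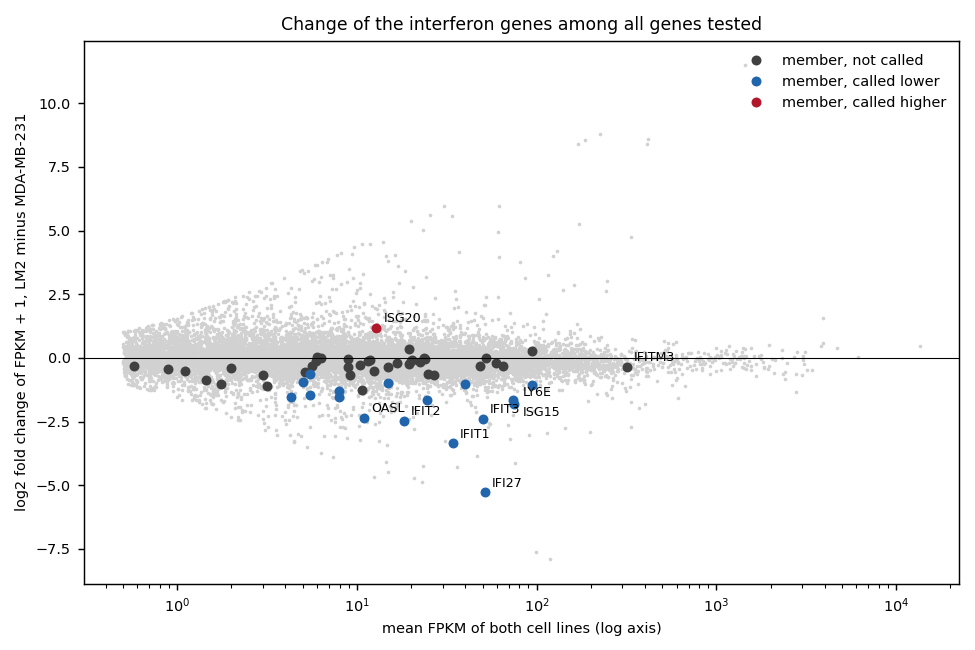
Log2 fold change of FPKM + 1 (LM2 minus MDA-MB-231) against the mean FPKM of both cell lines (log axis) for the 13911 genes tested (grey) and the 56 members tested (dark points, blue where called lower, red where called higher). IFI27 at -5.27 and IFIT1 at -3.34 lie near the lower edge of all genes, and ISG20 is the 1 red point.

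Marker genes gave the following levels. VIM, the mesenchymal filament gene, had 1355 FPKM in MDA-MB-231 and 1768 FPKM in LM2, and the hormone receptor genes ESR1 and PGR had at most 0.0331 FPKM. ERBB2 was measurable in both, with 34.95 and 22.76 FPKM, as was the luminal gene GATA3 with 3.1 and 2.42 FPKM. Of the epithelial genes, EPCAM was called lower in LM2, the direction of most members, with 12.3 FPKM (8.38 to 16.1) and 4.93 FPKM (3.13 to 6.73). CDH1 had 0.851 and 0.365 FPKM and was not called. The part of the epithelial genes in the results was not tested. Of 8 blood cell genes, mostly of white blood cells but with the red blood cell gene HBB, CD14 was the 1 gene that passed the filter. It had 1.17 and 1.75 FPKM. CD3E was listed at 0 in both cell lines, and these 8 genes together had 1.75 FPKM (MDA-MB-231) and 2.20 FPKM (LM2).

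No interferon gene passed the filter. IFNB1, which encodes IFN-beta, was listed at 0 in both. Of 20 other interferon genes, 19 were listed at 0 in both cell lines, and IFNL1 had 0.0582 and 0.0302 FPKM. An exact 0 in this table can be a failed estimate, since the translation factor gene EEF1A1, used by every cell, is at 0 with the status HIDATA. The interferon genes at 0 had a status of OK.

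Receptor chains differed in direction. IFNGR2, a signalling chain of the interferon-gamma receptor, had 54.1 FPKM in MDA-MB-231 (bounds 38.1 to 70.0) and 25.8 FPKM in LM2 (17.8 to 33.7), and was called lower with a change of -1.04. IFNAR1 had 30.6 FPKM (20.2 to 41.1) and 19.3 FPKM (12.7 to 25.9). IFNAR2 had 11.5 FPKM (5.202 to 17.8) and 6.77 FPKM (2.74 to 10.8). Both type I chains were past 1.5-fold in the same direction, with overlapping bounds. IFNGR1, the ligand-binding chain for interferon-gamma, had 16.9 FPKM (12.6 to 21.2) and 22.0 FPKM (16.5 to 27.6), with no call.
The lower chains are neighbours on chromosome 21 of GRCh37, with IFNAR2 from 34577587 to 34637980, IFNAR1 from 34696692 to 34732170 and IFNGR2 from 34775719 to 34851655, all on the plus strand. IFNGR1 is on chromosome 6, from 137518620 to 137540586. IL10RB, a chain shared by receptors of the interleukin-10 family and of IFN-lambda, lies between IFNAR2 and IFNAR1 and had 23.9 and 15.2 FPKM, a change of -0.63. Of 34 protein-coding neighbours tested within 3 Mb of IFNGR2, 28 were lower in LM2 and 4 were called lower, with a median change of -0.39. Relative to the median of such neighbours, a setting added later, IFNGR2 went from -1.04 to -0.65, IFNAR1 from -0.64 to -0.26 and IFNAR2 from -0.68 to -0.29. IFNGR2 stayed past 1.5-fold. This setting shifted the changes and left the bounds as given, so whether the bounds of IFNGR2 would still be apart was not tested. Exons of the read-through gene IFNAR2-IL10RB and of IL10RB-DT overlap 27.7% of the exon bases of IFNAR2. Exons of TMEM50B overlap 15.0% of the exon bases of IFNGR2, and TMEM50B itself had 15.1 and 7.68 FPKM.

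None of the 7 transcription factors that carry the signal was called. Of all genes tested, 4.61% were called lower and 4.67% higher, so none of 7 is near these shares. STAT2 had 24.1 FPKM (17.2 to 31.1) in MDA-MB-231 against 23.4 FPKM (16.5 to 30.4) in LM2, and IRF9, its partner in the ISRE-binding complex, had 12.1 FPKM (0.964 to 23.3) and 10.9 FPKM (0.514 to 21.4). The bounds of IRF9 were wide, so its change was not resolved, and exons of other gene models overlap 27.2% of its exon bases. IRF7, which amplifies type I interferon production, had 5.90 and 6.04 FPKM. The highest of this group was IRF3, the factor activated by nucleic acid sensing, with 72.8 and 57.9 FPKM. IRF1, which is induced most strongly by interferon-gamma, had 33.5 FPKM (24.0 to 43.1) and 20.4 FPKM (14.4 to 26.4), a change of -0.69 with overlapping bounds, and 22.9% of its exon bases lie in other genes, IRF1-AS1 among them. For IRF3 this share was 19.3% (BCL2L12). IRF2 changed by -0.10 and IRF5, at 1.18 and 0.612 FPKM, by -0.43, or by -0.94 without the pseudocount.
JAK1 had 43.2 and 34.5 FPKM, and TYK2 had 37.5 and 54.1 FPKM. Of 16 genes for further receptor chains, kinases, STAT and IRF factors and their regulators, 13 were tested and none was called. With so few genes this is near the shares of all genes tested, 4.61% called lower and 4.67% higher. Lower by 1.5-fold with overlapping bounds were 4 of the 13, against 11.8% of all genes tested lower by the fold alone.

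IFIT1, IFIT2 and IFIT3, whose proteins bind foreign RNA and block its translation, were all called lower. IFIT1 had 63.0 FPKM in MDA-MB-231 (bounds 29.4 to 96.6) and 5.34 FPKM in LM2 (0.167 to 10.5), which is 11.8-fold lower. IFIT2 had 31.4 FPKM (15.3 to 47.5) and 4.89 FPKM (1.58 to 8.20), and IFIT3 had 84.9 FPKM (51.0 to 118.9) and 15.5 FPKM (8.15 to 22.8). The ratios of these were 6.43 and 5.48. None of the bounds of the 3 genes overlapped between the cell lines. The other IFIT gene among the members, IFIT5, had 21.1 FPKM (15.3 to 26.8) and 17.8 FPKM (12.9 to 22.6). Its change was -0.23, and its bounds overlapped.
The 4 genes lie within the same stretch of chromosome 10, from the start of IFIT2 at 91043451 to the end of IFIT5 at 91181362, and the promoter of IFIT1 or IFIT3 holds 2 ISRE cores, while that of IFIT5 holds 3, of which 2 are in the stretch shown above. The 31 protein-coding neighbours tested within 3 Mb of IFIT1 had a median change of 0.06, with none called lower, and the 8 within 1 Mb had a median of -0.20 and were all lower in value. Exons of other genes overlap 13.6% of the exon bases of IFIT2, and 1.9% of those of IFIT3.

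IFI27 had the largest change of all members. It had 100.9 FPKM in MDA-MB-231 (bounds 70.0 to 131.9) and 1.65 FPKM in LM2 (0.293 to 3.01), 61.2-fold lower, and its change of -5.27 ranked 3 from the lowest among the 13911 genes tested. Its neighbours on chromosome 14, IFI27L1 and IFI27L2, are of the same family and had values in the other direction, with 20.3 and 24.3 FPKM for IFI27L1 and 51.4 and 76.0 FPKM for IFI27L2, neither called. The 38 protein-coding neighbours tested within 3 Mb had a median change of 0.23, with 6 called higher and 1 called lower. No exon of another gene overlaps IFI27 (94571182 to 94583032, plus strand).
None of the other IFI-named genes was called, where 4.61% of all genes tested were called lower and 4.67% higher. IFI6, the related gene whose promoter holds 3 ISRE cores, had 6.24 FPKM (4.10 to 8.37) and 5.64 FPKM (3.68 to 7.59). IFI44 had 23.6 and 21.1 FPKM, IFI35 had 21.0 and 19.5 FPKM, and IFI44L had 0.742 and 0.400 FPKM. Their changes lay between -0.32 and -0.10, and that of IFI44L was -0.89 without the pseudocount. Exons of LINC02574 overlap 23.1% of IFI6.

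**Figure D3:**
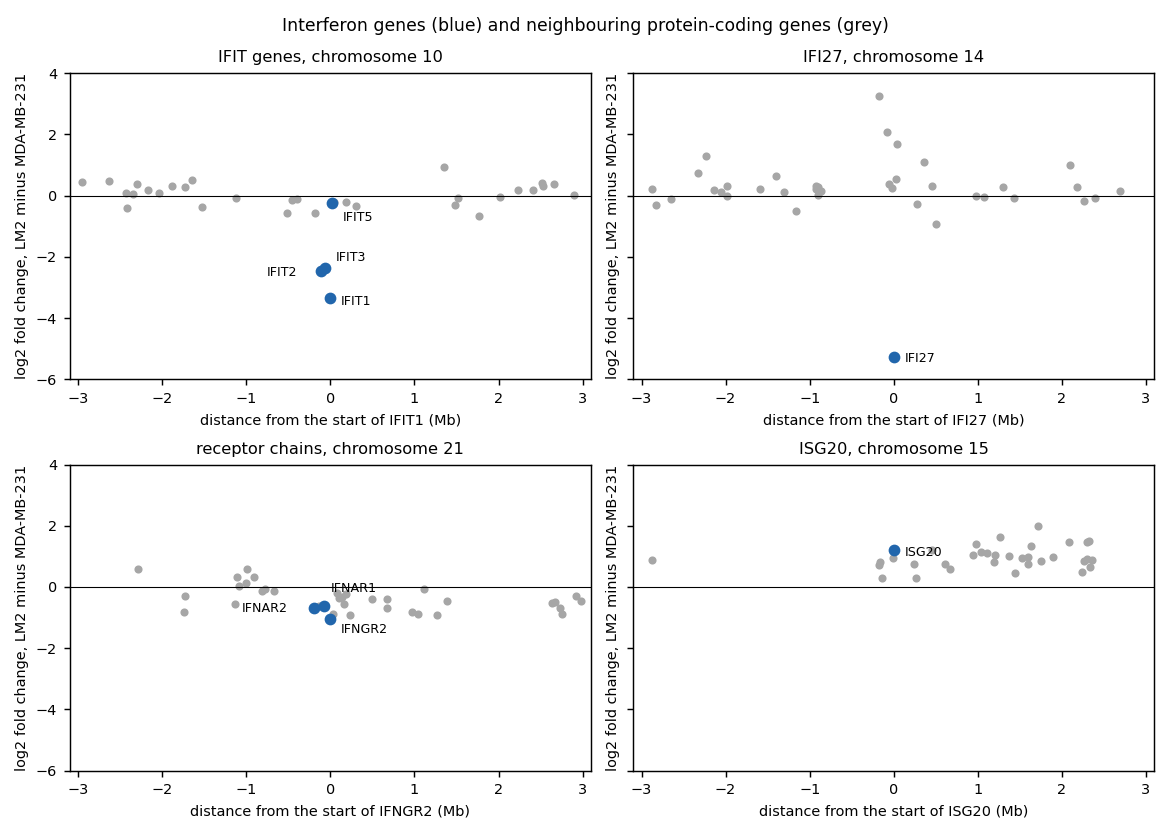
Log2 fold change of FPKM + 1 (LM2 minus MDA-MB-231) of members (blue) and of other protein-coding genes tested (grey) against the distance in Mb from the start of IFIT1, IFI27, IFNGR2 and ISG20. IFIT1, IFIT2, IFIT3 and IFI27 stand apart from the genes beside them, whereas IFNAR1, IFNAR2 and ISG20 lie among the values of their neighbours and IFNGR2, at -1.04, lies just below the lowest of its neighbours at -0.92.

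Genes of the cell membrane were split in the same way. IFITM1, IFITM2 and IFITM3 encode proteins that hinder the entry of viruses. IFITM1 was called lower, as its FPKM was 37.9 (22.9 to 53.0) in MDA-MB-231 against 11.3 (3.74 to 18.9) in LM2, a difference of 3.35-fold. IFITM3 was the highest of all members, with 355.1 FPKM (273.4 to 436.8) and 280.0 FPKM (216.3 to 343.7), and IFITM2 had 84.9 FPKM (58.3 to 111.6) and 102.6 FPKM (75.6 to 129.5). Neither of these was called. The 3 genes are near copies of each other, and of all stretches of 50 bases in their transcripts, 29.8% (IFITM1), 21.6% (IFITM2) and 15.7% (IFITM3) also occur in transcripts of other genes, so how reads were shared between them is uncertain. Exons of other gene models overlap 31.6% of the exon bases of IFITM1 and 16.3% of those of IFITM3.
BST2, also called tetherin, which holds budding viruses at the cell surface, had 127.5 FPKM (98.0 to 156.9) and 60.5 FPKM (45.4 to 75.5), 2.11-fold lower. LY6E, which encodes a surface protein anchored to lipid, had 112.7 FPKM (86.8 to 138.7) and 35.4 FPKM (26.4 to 44.4), 3.18-fold lower. Both were called lower. PLSCR1, for phospholipid scramblase, had 23.8 and 23.7 FPKM.

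ISG15 encodes a small protein that is attached to other proteins as ubiquitin is. In MDA-MB-231 its FPKM was 116.4 (88.4 to 144.4), and in LM2 it was 32.6 (23.9 to 41.3), 3.57-fold lower and called. HERC5, the main ligase that attaches it, had 14.8 FPKM (11.2 to 18.4) and 10.1 FPKM (7.53 to 12.6), a change of -0.51 that was not called. The related HERC6 was called lower, with 11.7 FPKM (6.68 to 16.7) and 4.10 FPKM (2.14 to 6.06). USP18, the protease that removes ISG15, had 1.49 FPKM (0.941 to 2.03) and 0.721 FPKM (0.413 to 1.03), with a ratio of 2.06 and overlapping bounds.

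Nucleic acid sensors and enzymes of double-stranded RNA were all lower in LM2 in value. Of the 10, 3 were called lower, against 4.61% of all genes tested. OASL, an OAS-like protein that assists RNA sensing, had 19.02 FPKM (14.2 to 23.8) and 2.94 FPKM (1.96 to 3.92), 6.48-fold lower. DDX60, a helicase, had 12.3 FPKM (7.03 to 17.6) and 3.603 FPKM (1.497 to 5.71). IFIH1, which encodes the RNA sensor MDA5, had 6.94 FPKM (4.91 to 8.97) and 3.09 FPKM (2.08 to 4.10), 2.25-fold lower. The other RNA sensor, DDX58 (RIG-I), had 16.8 FPKM (12.6 to 21.0) and 12.8 FPKM (9.61 to 15.9) and was not called, and exons of another gene model overlap 43.2% of its exon bases.
The OAS genes make the messenger that activates RNase L, and the cluster on chromosome 12 was uneven. OAS2 had 15.4 FPKM (6.94 to 23.8) and 5.81 FPKM (1.76 to 9.86), a ratio of 2.65 with bounds that overlap. OAS3 had 6.37 and 6.30 FPKM. OAS1 had 2.14 FPKM (0 to 5.03) and 0.748 FPKM (0 to 2.31), and its bounds overlapped as well. The kinase gene EIF2AK2 (PKR) changed by -0.12, the RNA editing gene ADAR by -0.30 and IFI16, which encodes a DNA sensor and was the highest of this group at 63.7 and 55.4 FPKM, by -0.20.

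Among the interferon-induced GTPases, MX1 and GBP1 were called lower. MX1, which traps viral nucleoproteins, had 8.51 FPKM (5.90 to 11.1) and 2.44 FPKM (1.25 to 3.63), 3.49-fold lower. Its neighbour MX2 had 2.67 FPKM (1.28 to 4.07) and 0.824 FPKM (0.249 to 1.40), with bounds that overlap slightly. The 34 protein-coding neighbours tested within 3 Mb of MX1 on chromosome 21 had a median change of -0.40, with 28 of them lower in LM2. GBP1, a guanylate-binding protein, had 20.02 FPKM (14.9 to 25.1) and 9.60 FPKM (6.90 to 12.3), while GBP2 beside it had 17.8 and 15.6 FPKM. At 2-fold in place of 1.5-fold, GBP1 and IFIH1 were no longer called.

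None of the 6 TRIM, PARP and DTX genes was called, which for so few genes is near the 4.61% called lower and 4.67% called higher of all genes. The ubiquitin ligase gene TRIM25, needed for RIG-I signalling, had 51.9 and 52.2 FPKM, and PARP14 had 8.97 and 8.77 FPKM. PARP9 and DTX3L, which act as a complex and share a promoter region on chromosome 3, changed by -0.54 and -0.35. TRIM22 had 3.93 FPKM (1.72 to 6.14) and 2.09 FPKM (0.0143 to 4.17), and TRIM21 changed by -0.27.

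SAMD9L, which restrains growth and translation, had 6.83 FPKM (4.53 to 9.12) in MDA-MB-231 against 1.73 FPKM (0.862 to 2.61) in LM2, 3.94-fold lower, and was called. Its paralogue SAMD9, next to it on chromosome 7, was called at the edge of the rule, with 6.89 FPKM (5.23 to 8.55) and 4.12 FPKM (3.08 to 5.16). The change of SAMD9 was -0.62, where 1.5-fold is 0.58 on this scale. Just outside the rule were IFNAR1 at -0.64, whose bounds overlap, and PARP9 at -0.54. XAF1, a pro-apoptotic gene, had 4.69 FPKM (2.00 to 7.39) and 1.61 FPKM (0.653 to 2.57), a change of -1.12 with overlapping bounds, and PRAL covers 38.3% of its exon bases. SP110, with 19.4% of its exon bases in other genes, changed by -0.30 and EPSTI1 by -0.40.
RSAD2 (viperin) and its neighbour CMPK2 were below the filter, with 0.576 and 0.0466 FPKM for RSAD2 and 0.276 and 0.0259 FPKM for CMPK2. With IFNB1 they were the 3 members not tested. IFI44L was the 1 member tested whose FPKM in LM2 was under 0.5.

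ISG20, an RNA exonuclease gene on chromosome 15 (89178901 to 89199714, plus strand), was the 1 member called higher. It had 7.42 FPKM (4.19 to 10.6) in MDA-MB-231 against 18.2 FPKM (12.2 to 24.3) in LM2, a change of 1.19. Each of the 35 protein-coding genes tested within 3 Mb of it was higher in LM2 too, 12 of them called, with a median change of 0.94. Relative to that median, a setting added once the data had been seen, the change of ISG20 was 0.25 and was not called. SAMD9 was also lost in this comparison, and the 16 other members called lower kept their call.

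Members with and without an ISRE core overlapped widely in their changes. Of the members tested with a promoter in the table, 26 held the core, of which 11 were called lower and 1 called higher. Their median change was -0.46, with a range of -5.27 to 1.19. In 17 members without it, 3 were called lower, with a median of -0.37 and a range of -1.52 to 0.36. The 15 members with 2 or more cores had a median of -0.96. Of these, 8 were called lower and 7, among them IFI6, IFIT5 and IFITM3, were not called. The presence of the core in these windows is a description and not evidence that a factor binds there.

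**Figure D4:**
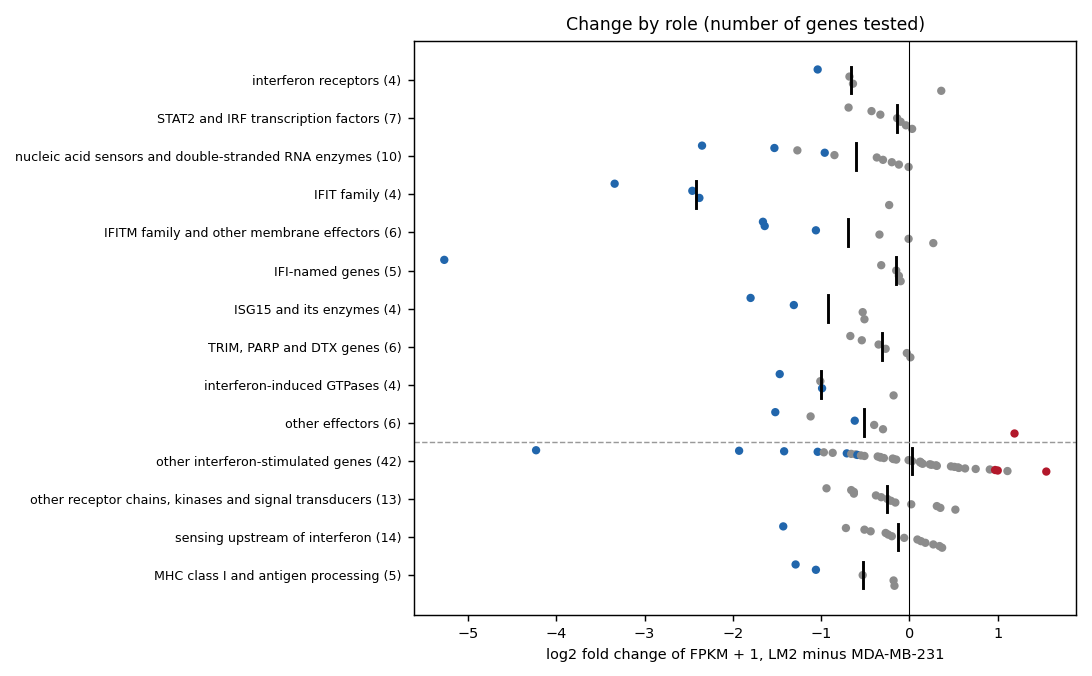
Log2 fold change of FPKM + 1 (LM2 minus MDA-MB-231) of each gene tested, by role of the members above the dashed line and for 4 further lists of interferon pathway genes below it, with black bars for medians, blue for genes called lower, red for genes called higher and grey for genes not called. The IFIT family had the lowest median at -2.42, and the median of the other interferon-stimulated genes was 0.02.

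Interferon-stimulated genes outside the list did not move as a block. Of 48 further ones, written from general knowledge with earlier results of these data known, 42 were tested. Of these, 6 (14.3%) were called lower and 3 (7.14%) called higher, against 4.61% and 4.67% of all genes tested. In value, 20 of the 42 were lower and 22 higher, and their median change was 0.02. TNFSF10, which encodes the death ligand TRAIL, had 45.4 FPKM (33.7 to 57.0) in MDA-MB-231 against 1.47 FPKM (0.750 to 2.19) in LM2, 30.8-fold lower. APOL1, an apolipoprotein gene, had 15.6 and 3.35 FPKM, a change of -1.93. The other 4 called lower were PARP12, APOL2, LAP3 and APOL6, with changes of -1.42, -1.04, -0.71 and -0.59. Called higher were APOBEC3G, a cytidine deaminase gene, with 1.98 FPKM (0.631 to 3.32) and 7.70 FPKM (4.60 to 10.8), SLFN5 with a change of 1.00, and C1R with 0.97. Of 18 sensing genes upstream of interferon, in 19 table rows, 14 were tested and ZC3HAV1, an antiviral zinc finger gene, was the 1 called. It had 21.6 FPKM (15.9 to 27.2) and 7.34 FPKM (5.43 to 9.25).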

How the data were processed

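RNA-Seq of 4 libraries, 2 per cell line, was analysed from 1 table. According to the study's methods, reads were aligned to hg19 by the authors using TopHat2, who quantified GENCODE 19 genes with Cufflinks, and the labels also name Cuffdiff. The deposited values are FPKM, a unit the authors computed per cell line over both libraries, with bounds. Library size normalization and the use of strand in counting are not given in the sources used here, so overlaps over 10% of a member's exon bases, with genes on either strand, are stated. The table gives no reads per gene or library, and library totals of aligned reads, which the study lists, were not used here. Precision was read from the bounds, which lay above the FPKM by 22.8 to 209.0% of its value among members tested. Summed over the table, FPKM came to 632944 (MDA-MB-231) and 598147 (LM2). A status other than OK was given to 8 genes.

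Log2 fold changes with a pseudocount of 1 were calculated in Python 3.11.15 with NumPy 2.4.6 and pandas 2.3.3 and drawn with Matplotlib 3.10.9. Limma was not run, since there is 1 value per gene and cell line. Named are all members called, the highest of each role, members near the threshold or listed at 0, and of further lists the genes called. Other members are named by role. Values of some genes of these lists are not reported here. The members and lists were chosen with earlier results of these data known. Neighbours, positions and overlaps came from GENCODE 44 on GRCh37, to which all 59 members matched by Ensembl ID, and DDX58 was looked up as RIGI among the RefSeq promoters. Stretches of 50 bases were compared on the transcript strand. Alternatives were other pseudocounts, filters, call rules and scalings.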

Additional observations from a re-analysis of the deposited data

How the results depend on the processing

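No paired analysis was possible because the table holds 1 value per cell line, and for the same reason no library could be left out. Members called lower numbered 14 at 2-fold, where 2.9% of all genes tested were called lower, and 25 with the fold alone, where 11.8% were, and lay between these under the other alternatives. The 17 members were all called again with a pseudocount of 0.1, with none, with no filter on low values and with a minimum mean of 1 FPKM. SAMD9 was lost with TPM scaling and with centring on the median of all genes, SAMD9L was not tested at a mean of at least 5 FPKM, and SAMD9, GBP1 and IFIH1 were lost at 2-fold. The fold alone added IFNAR1, IFNAR2, IRF1, MX2, OAS1, OAS2, TRIM22 and XAF1. The median of the members went from -0.47 to -0.65 with a pseudocount of 0.1, to -0.66 without one and to -0.35 at a mean of at least 5 FPKM. In 42 members tested with little overlap with other genes, chosen after the data were seen, 14 were called lower. Relative to neighbours within 3 Mb, also chosen later, 0 members were called higher. In this setting and with centring, only the changes were shifted and the bounds were left as given. Of 74 other pathway genes tested, 12 were called, 9 lower (12.2%) and 3 higher (4.05%), against 4.61% and 4.67% of all genes tested. With the fold alone, 25 were called, 18 lower and 7 higher, against 11.8% and 10.3% of all genes tested.

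Changes that turned sign were those of 7 members. With TPM scaling and centring, OAS3 went to 0.06 and 0.03, PARP14 to 0.05 and 0.02, PLSCR1 to 0.07 and 0.04, and STAT2 to 0.04 and 0.0. Relative to neighbours, OAS3 went to 0.21, EIF2AK2 and IRF5 to 0.01 and TRIM25 to -0.04. None of these was called. The ISRE share was 52.2% and the GAS share 28.3% with bases before the start only.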

Other observations

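Genes of MHC class I and antigen processing, many of which interferon induces, could be read only in part. Of 14 rows for 13 genes, 9 were not tested, and each of these had under 0.05 FPKM in both cell lines. TAP1, PSMB8, PSMB9 and HLA-E were listed at 0, while B2M, whose protein pairs with all class I heavy chains, had 1922 FPKM in MDA-MB-231 and 1704 FPKM in LM2. No absence of RNA is read from these values. HLA-B had 30.5 FPKM (22.4 to 38.6) and 11.9 FPKM (8.35 to 15.4), and HLA-C had 4.81 FPKM (2.996 to 6.62) and 1.79 FPKM (0.953 to 2.63). Both were called lower, with changes of -1.29 and -1.06, but class I genes share sequence and their values are uncertain. NLRC5, the activator of class I genes, changed by -0.18.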
